A study of Mus musculus with 2 samples.

Results

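Among the 14350 barcodes of a pooled droplet library that passed the limits on depth, 186 held at least 3 UMIs of Krt5, at least 3 UMIs of Krt14 and no UMI of Cdh5. A UMI is a tag that marks 1 captured RNA molecule, and a barcode marks 1 droplet, usually 1 cell. The 186 barcodes made up 1.30% of the passing barcodes (exact 95% binomial interval 1.12 to 1.49%). The limits were 2000 to 75000 gene UMIs, more than 500 genes, and less than 5% of UMIs each from mitochondrial and haemoglobin genes. Krt5 and Krt14 are the keratin partners of the basal layer of stratified epithelium, and Cdh5 encodes VE-cadherin of endothelium. The barcodes were therefore chosen on measured UMIs, and every difference in gene level given here between them and other barcodes is a description without a test.

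By the labels, the library held heart and liver cells of C57BL/6 pups from 3 genotypes, named Control, iSureCre and iSureHadCre. Each genotype had the Cdh5-CreERT2 driver, which limits inducible Cre to endothelium. The pups were given 40 mg/kg of 4-hydroxytamoxifen once at postnatal day 3, and tissue was taken 3 days later, at an age of P6 to P7. Cells were sorted for CD31, an endothelial surface protein, and for the presence or absence of the Tomato reporter, so keratinocytes were not the labelled cell type. Each of the 6 tissue and genotype groups was marked by 1 hashtag antibody and was 1 pool, so that there was 1 library, no replicate and no test between groups. Only 7 of the 186 Krt5/Krt14 barcodes held at least 100 UMIs of such a hashtag. The labels therefore tie most of these barcodes to no tissue or genotype, and their origin was not tested. The strain, dose and age above are those that the labels give for the library, and they were not shown for each of these barcodes.

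Basal keratinocytes line the underside of stratified epithelia such as the epidermis, where they divide, are held to the basement membrane by hemidesmosomes and depend on the transcription factor encoded by Trp63. Daughter cells that leave this layer lower Krt5 and Krt14, raise Krt1 and Krt10 as spinous cells, and later make the proteins of the granular and cornified layers. Notch signalling is known to promote that step, and Wnt ligands made by basal cells are known to act on the epidermis and on the dermis beneath it.

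The upstream sequences of Krt5, a basal keratin, and of Krt10, a spinous keratin, are shown. Krt5 lies at chr15:101707070-101712898 on the minus strand of GRCm38, Krt14 at chr11:100203162-100207548 (minus), Krt15 at chr11:100131758-100135928 (minus) and Trp63 at chr16:25683763-25892102 (plus). The 250 bases before the RefSeq start of Krt5 (chr15:101712906-101713155) and of Krt10 (chr11:99389365-99389614), both on the minus strand of GRCm38.p6, are printed 5′ to 3′. Capitals mark CACCC, a core motif of KLF factors, its complement GGGTG, and TATAAA, the TATA box.
Krt5: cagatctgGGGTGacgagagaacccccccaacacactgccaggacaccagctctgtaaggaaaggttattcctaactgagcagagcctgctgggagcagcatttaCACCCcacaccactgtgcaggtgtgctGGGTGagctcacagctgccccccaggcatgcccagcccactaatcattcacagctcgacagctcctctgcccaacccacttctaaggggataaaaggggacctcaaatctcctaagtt
Krt10: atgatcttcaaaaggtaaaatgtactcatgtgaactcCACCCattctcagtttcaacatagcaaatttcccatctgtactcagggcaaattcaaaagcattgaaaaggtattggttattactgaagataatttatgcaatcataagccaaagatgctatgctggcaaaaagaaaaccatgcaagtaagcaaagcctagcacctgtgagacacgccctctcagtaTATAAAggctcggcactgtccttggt
The Krt5 window held 3 matches of CACCC and the Krt10 window 1, on either strand. At least 1 such match was present in 52.0% of 32851 mouse promoter windows. TATAAA was matched in the Krt10 window and not in the Krt5 window, and in 12.4% of all windows. GCCNNNGGC, the motif of AP-2 factors, matched neither window and 13.7% of all. These are letter matches only.

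The Krt5/Krt14 barcodes were deep. Their UMIs ranged from 2345 to 66017 with a median of 23444, against a median of 5626 in the 14164 other passing barcodes. Their median number of genes was 4987, against 2458. Per barcode, Krt5 ranged from 3 to 78 UMIs (median 15.5), Krt14 from 3 to 166 (median 23.5) and Krt15, a further basal keratin that the rule did not use, from 0 to 104 (median 14.5). Counts of Krt14, Krt16 and Krt17 are uncertain to some extent because these genes are near-identical over much of their sequence.

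In all, 248 passing barcodes held both keratins at 3 UMIs or more, and 62 of them also held Cdh5. Of those 62, 31 had exactly 1 Cdh5 UMI and the highest had 32. The barcodes at the threshold were shallower than the rest. Where the scarcer keratin stood at 3 UMIs (12 barcodes, median 7681 UMIs), Trp63 was detected in 5 and Epcam, an epithelial surface protein, in 11. Just outside, where the scarcer keratin stood at 2 UMIs (33 barcodes, median 6147 UMIs), Trp63 was detected in 7 and Epcam in 21. In the 174 barcodes above 3 UMIs, Trp63 was detected in 158. Members with 3 UMIs and neighbours with 2 were thus both shallow, and Trp63 was detected in only a part of each. Krt15 was detected in 5 of these 12 members and in 22 of these 33 neighbours. Dsp, a desmosome gene, was detected in 3 and 14, and Col17a1, a hemidesmosome gene, in 3 and 6. These sets are small.

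**Figure D1:**
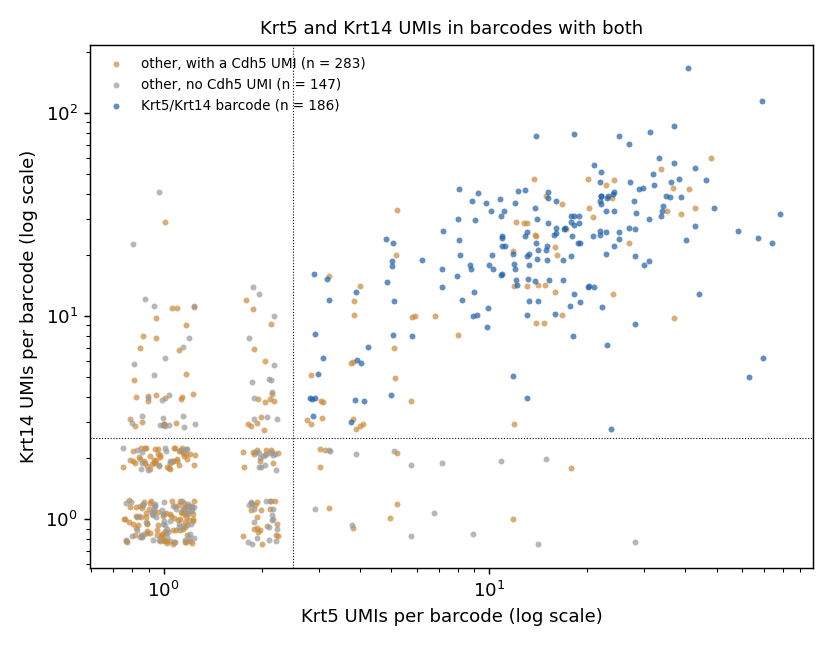
Krt5 UMIs (horizontal) against Krt14 UMIs (vertical) of every passing barcode with at least 1 UMI of each, both axes on a log scale, with points moved by up to 0.25 UMI to part overlaps. The 186 Krt5/Krt14 barcodes lie right of and above the dotted lines drawn between 2 and 3 UMIs, 283 other barcodes held a Cdh5 UMI, and 147 held none but missed the keratin minimum.

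Levels are given as CPM, the count in each 1000000 UMIs, of the UMIs summed over a set of barcodes, with exact Poisson intervals that cover counting error only. They were set beside those of the other passing barcodes, of 1325 mesenchymal barcodes (at least 3 UMIs each of Col1a2 and Col3a1, no Cdh5) and of 8319 barcodes with a Cdh5 UMI. A gene was counted as higher or lower where the level plus 10 CPM differed at least 2-fold, among genes with at least 50 UMIs. By this measure, 277 of 15792 genes (1.75%) were higher in the Krt5/Krt14 barcodes than in the other barcodes and 1337 (8.47%) were lower. All counts of listed genes below are to be read beside these shares. Because of the added 10 CPM, a gene below 10 CPM in the compared set could not be counted as lower. Likewise, a gene below 10 CPM in the Krt5/Krt14 barcodes could not be counted as higher. Against the mesenchymal barcodes 2.55% were higher and 7.27% lower, and against the Cdh5 barcodes 2.7% were higher and 10.3% lower. The sets differed in depth, with a median of 16625 UMIs in the mesenchymal and 5564 in the Cdh5 barcodes.

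Basal markers beyond the keratins of the rule were high. Of 10 such markers, 9 had enough UMIs to be counted, and 8 were higher than in the other barcodes. The marker lists were written with earlier results of these data known, so this count is a description. The rule itself set Krt14 (1068 CPM against 25.4) and Krt5 (767 CPM against 17.3). Krt15 stood at 784 CPM (median 14.5 UMIs per barcode) against 27.9 in the other barcodes, 2.24 in the mesenchymal and 31.1 in the Cdh5 barcodes, a ratio to the other barcodes of 28.1 (26.8 to 29.4). Trp63 ranged from 0 to 23 UMIs per barcode with a median of 3. Its level was 161 CPM against 5.37, a ratio of 30.1 (27.1 to 33.3), and it was detected in 87.6% of the Krt5/Krt14 barcodes and in 2.07% of the others. After each barcode was thinned to 2000 UMIs these shares were 25.8% and 0.890%. Cxcl14, a chemokine of epithelium, ranged from 0 to 254 UMIs with a median of 44 and stood at 1766 CPM against 81.1. Dlk2 was at 14.9 CPM against 1.51 and Cdh3, the classical P-cadherin of basal cells, at 89.97 against 11.6. Mt4, a metallothionein of stratified epithelium, had no UMI in 4646040 UMIs of the 186 barcodes, which allows at most 0.646 CPM (3 counts).

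Several genes that hold basal cells to the basement membrane were high as well. Of 20 genes of the hemidesmosome and epidermal basement membrane, 13 were higher and 1 lower than in the other barcodes, with a median log2 difference of 1.52 against -0.10 over all genes. Col17a1, the transmembrane collagen of the hemidesmosome, was at 73.4 CPM against 2.27, a ratio of 32.3 (27.6 to 37.8). Itgb4, its integrin partner, was at 34.4 CPM against 4.66, while Itga6, the alpha chain that pairs with it, was at 82.7 CPM against 128 in the other barcodes and 209 in the Cdh5 barcodes. Itgb1, the common beta chain, was the lower gene of this list, at 244 CPM against 578. Fermt1, the kindlin of epithelium, was at 80.5 CPM against 2.84. The laminin chains Lama3 and Lamb3 were at 50.4 and 9.47 CPM, against 7.14 and 2.16. Fras1 and Frem2, which join the epidermis to the dermis before and around birth, were at 295 CPM against 30.6 and at 62.0 against 6.62. Col7a1, the anchoring fibril collagen, was at 17.2 CPM against 1.77. Against the Cdh5 barcodes 12 of the 20 genes were higher and 3 lower. The summed level of the list was 1489 CPM, against 1120 in the other barcodes and 1493 in the Cdh5 barcodes.

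Among 17 integrin chains 3 were higher and 5 lower, beside 1.75% and 8.47% of all genes. Itgb5 was at 94.3 CPM against 28.4 and Itga3 at 23.5 against 6.24. Itga1 and Itga9, which endothelium also uses, were at 5.17 CPM against 75.7 and 3.44 against 56.0. The integrin profile was therefore mixed, with the highest ratios in chains known from epithelium.

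Genes of cell contacts were high as a group. Of 13 desmosome genes counted, 7 were higher and none lower, with a median log2 difference of 1.54. Perp, a desmosomal membrane protein and target of Trp63, ranged from 0 to 92 UMIs per barcode (median 6) and stood at 376 CPM against 14.4. Dsp, the plakin that ties desmosomes to keratin, was at 285 CPM against 11.7. Pkp1 was at 31.9 CPM against 0.901 and Dsc3 at 32.1 against 1.50. Jup, plakoglobin of desmosomes and adherens junctions, was at 101 CPM against 60.5 and did not reach 2-fold. Of 19 genes of epithelial adherens and tight junctions 13 were higher and none lower. Cdh1, E-cadherin, was at 75.1 CPM against 5.87, and Epcam at 394 CPM against 41.1, detected in 98.4% of the Krt5/Krt14 barcodes and 11.1% of the others, or 51.8% and 6.04% after thinning. Esrp1, the splicing factor of epithelium, was at 109 CPM against 4.78. Gjb2 and Gjb6, the connexins of skin and inner ear, were at 132 CPM against 4.24 and at 91.7 against 2.86. Sfn, the 14-3-3 protein of stratified epithelium, was at 597 CPM against 23.5. The same genes were low in the mesenchymal barcodes, where Perp was at 2.81 CPM, Dsp at 4.52 and Esrp1 at 1.43.

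Epidermal transcription factors showed 13 of 22 higher and none lower, with a median log2 difference of 1.52. The AP-2 genes Tfap2a, Tfap2b and Tfap2c were at 78.8, 221 and 62.9 CPM, against 5.80, 15.8 and 4.03. Grhl2, a grainyhead factor of epithelium, was at 69.3 CPM against 3.01 and Klf5 at 103 against 10.4. Ovol1 and Zfp750, known from the exit from the basal layer, were at 43.1 CPM against 1.43 and 27.6 against 0.763, but were detected in only 25.8% and 18.3% of the Krt5/Krt14 barcodes. Klf4, also expressed by endothelium, was at 199 CPM against 161. Bcl11b, which acts in skin and tooth epithelium as well as in T cells, was at 255 CPM against 32.8 and was detected in 89.2% of the barcodes. Lmo1 and Fxyd3, among the 5 genes with the largest difference to the mesenchymal barcodes beyond those already named, were at 199 CPM against 8.03 and 102 against 2.28 there.

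**Figure D2:**
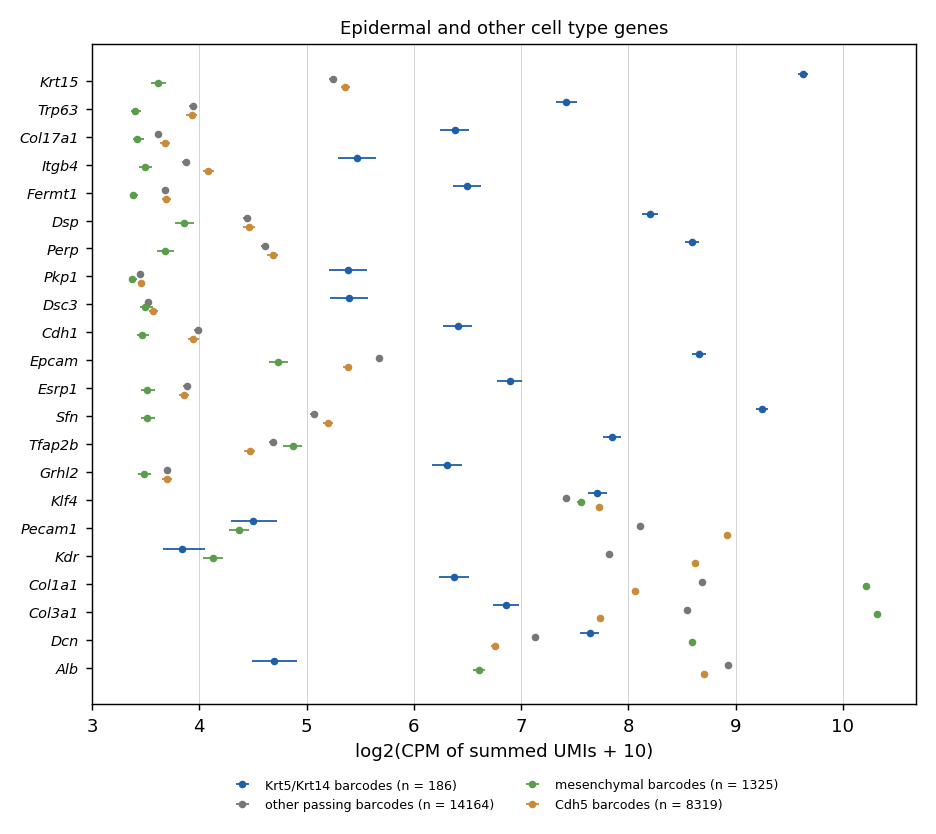
Levels of 22 genes as log2(CPM + 10) of summed UMIs in 4 sets of barcodes, with exact 95% Poisson intervals as bars (counting error only). The Krt5/Krt14 barcodes lie to the right of the other sets for the genes from Krt15 to Grhl2, lie near them for Klf4, and lie to the left of the other barcodes for Pecam1, Kdr, Col1a1, Col3a1 and Alb.

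The spinous and granular programme was uneven between barcodes. Krt10 was detected in 68.3% of the Krt5/Krt14 barcodes (61.1 to 74.9%) and in 18.1% of the others, at 109 CPM against 25.3, but its median was 1 UMI and its highest 52. After thinning to 2000 UMIs these shares were 13.7% (8.89 to 19.2%) and 4.94%. Krt1 was detected in 35.5%, from 0 to 97 UMIs with a median of 0, at 111 CPM against 3.47. Krtdap, a secreted product of differentiating keratinocytes, was detected in 16.7% and reached 295 UMIs, at 280 CPM against 8.75. A few barcodes thus carried most of these UMIs. At least 3 UMIs of all 3 genes were present in 9 barcodes (4.84%, 2.24 to 8.99%) and in 6 of the 14164 others. Over the spinous list, 5 of 9 genes counted were higher and none lower. Lgals7, a galectin of stratified epithelium on that list, was broad instead, detected in 84.9% at 335 CPM against 14.7. Of 17 granular and cornified genes, 8 had no UMI in the Krt5/Krt14 barcodes, Flg, Flg2, Cdsn, Hrnr and Krt2 among them, and 1 of the 6 counted was higher. Asprv1, a protease of the granular layer, was that gene, at 30.6 CPM against 5.50. Lor, the loricrin of the cornified envelope, was at 17.2 CPM against 4.14 and was detected in 15.6%.

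Several keratins of internal epithelia were at 0, and those of simple epithelium were mixed. Krt4, Krt13 and Krt6b, of mucosal epithelium and of stressed or follicular epidermis, had no UMI. Krt8 and Krt18, the pair of simple epithelium, were at 9.90 CPM against 27.0 and at 37.5 against 53.6. Krt7 and Krt19, also of simple epithelium, were at 20.9 CPM against 6.31 and at 15.5 against 9.13. Krt17, of hair follicle and periderm, was at 116 CPM against 9.40 but was detected in 32.3% and reached 91 UMIs in 1 barcode. Among 10 hair follicle genes counted, 3 were higher and 1 lower, beside 1.75% and 8.47% of all genes. Hoxc13, a regulator of hair keratins, was at 15.7 CPM against 0.668, a ratio of 23.5 (17.1 to 32.3), and was detected in 18.3%. Edar, the ectodysplasin receptor of hair placodes, was at 9.04 CPM against 0.400, and Lgr6, of follicle and skin stem cells, at 20.7 against 1.95. Sox9 was at 45.2 CPM against 100.0. Inner root sheath keratins were near 0, with no UMI of Krt25 or Krt71 and 4 of Krt27. Nkx2-1, of lung and thyroid, had no UMI, Foxn1, of thymic epithelium and hair, had 8, and Sox2, of oesophagus and airway, was at 7.32 CPM against 29.9. Lists of thymic, simple, myoepithelial, Merkel cell and melanocyte genes had no gene higher, though only 4 thymic genes were counted. The list of oesophageal and airway genes had 1 of 8 higher, and 2 further lists had 1 higher gene each. In the list of periderm and internal stratified epithelium that gene was Cldn4, a claudin, at 44.6 CPM against 4.19, and the summed level was 132 CPM against 102. In the list of oral, dental and corneal epithelium it was Bcl11b, which made up most of a summed level of 282 CPM against 88.9.

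Hox genes record position along the body axis. Of 39 in the matrix, 22 had at least 10 UMIs in the Krt5/Krt14 barcodes. Hoxc8 was at 32.5 CPM against 13.1 in the other and 30.8 in the mesenchymal barcodes, and Hoxa7 at 29.1 against 17.8 and 32.1. Hoxc4, Hoxc5, Hoxc6, Hoxc9 and Hoxc10 were between 7.96 and 12.9 CPM. Hoxa10 was at 2.80 CPM against 18.1. The Hoxc genes from Hoxc4 to Hoxc13 were all detected, and except for Hoxc8, Hoxc12 and Hoxc13 their levels were below those in the mesenchymal barcodes.

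Several Wnt ligands were far above their level in the other barcodes. Of 32 Wnt pathway genes 11 were higher and 2 lower, with a median log2 difference of 0.16 against -0.10 over all genes. Wnt6 ranged from 0 to 30 UMIs per barcode with a median of 6 and stood at 271 CPM against 9.72, a ratio of 27.8 (25.8 to 30.1). Wnt4 also had a median of 6 UMIs and stood at 269 CPM against 19.0, detected in 91.9%. Wnt3 was at 78.1 CPM against 2.75, Wnt7b at 66.3 against 4.52, Wnt10a at 27.6 against 1.26 and Wnt10b at 25.2 against 0.610, a ratio of 41.3 (30.9 to 55.3). Wls, which carries Wnt proteins to the cell surface, was at 361 CPM against 121. These ligands were low in the mesenchymal barcodes, where Wnt3 was at 0.407 CPM and Wnt6 at 2.24. Wnt5a was the reverse, at 34.2 CPM in the Krt5/Krt14 barcodes and 122 in the mesenchymal barcodes.

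Receptors, targets and antagonists of the pathway were mixed. Among receptors, Fzd6 was at 53.6 CPM against 18.2 and Fzd10 at 37.9 against 5.26, while Fzd2 was at 59.4 against 73.4. Lef1, a nuclear partner of beta-catenin, was at 152 CPM against 33.3. Axin2, a target of the pathway, was at 20.0 CPM against 13.8, a ratio of 1.45 (1.17 to 1.79). Kremen2, a receptor that dampens Wnt signalling with Dkk proteins, was at 91.9 CPM against 4.06. Sfrp1, a secreted Wnt antagonist, was at 14.2 CPM against 55.8.

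Of 24 Notch pathway genes, 2 were higher and 5 lower, beside 1.75% and 8.47% of all genes. Their median log2 difference was -0.34, against -0.10 over all genes. The higher pair were Dlk2 and the receptor Notch1. Notch1 stood at 97.1 CPM against 35.4, a ratio of 2.75 (2.49 to 3.02), with a median of 1 UMI and a highest of 20 per barcode. Notch2 was at 26.9 CPM against 57.1. Among ligands, Jag2 was at 32.7 CPM against 14.9, a ratio of 2.20 (1.85 to 2.60), and Jag1 at 29.3 against 25.4, a ratio of 1.15 (0.963 to 1.37). Dll4, the ligand of sprouting endothelium, had 1 UMI, at 0.215 CPM against 13.97. Hes1, a target, was at 144 CPM against 120, and Hey1, a target in endothelium, at 2.80 against 16.1. In the study, single cells of liver and heart served to examine Cre deletion of floxed Notch1 in endothelium, and the labels do not say which groups carried the floxed allele.

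Growth factor and BMP genes showed a few high members. Of 26 receptor tyrosine kinase genes counted 4 were higher and 8 lower, beside 1.75% and 8.47% of all genes. Egfr was at 120 CPM against 25.5, Erbb3 at 33.4 against 7.23 and Fgfr2, the receptor of keratinocyte growth factors, at 287 against 124. Fgf7 and Fgf10, ligands made by mesenchyme, were at 0.430 CPM each. Pdgfa, a signal from epidermis to dermis, was at 352 CPM against 36.6, and its receptor Pdgfra was at 11.8 CPM in the Krt5/Krt14 barcodes and 198 in the mesenchymal barcodes. Of 27 hedgehog, BMP and TGF-beta genes 5 were higher and 3 lower, to be read beside the same shares of all genes. Sostdc1, a secreted BMP and Wnt modulator of skin appendages, was at 241 CPM against 24.8. Bmp7 was at 50.8 CPM against 9.54, Bmpr1b at 216 against 66.5, and Fst, which binds activin, at 111 against 25.9 with 117 of its 515 UMIs in 1 barcode. Tgfbr2 was at 17.9 CPM against 89.9. Among 15 epidermal cytokine and alarmin genes counted 2 were higher, Cxcl14 and S100a14, and 3 lower. S100a8 had 654 of its 694 UMIs in 1 barcode.

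**Figure D3:**
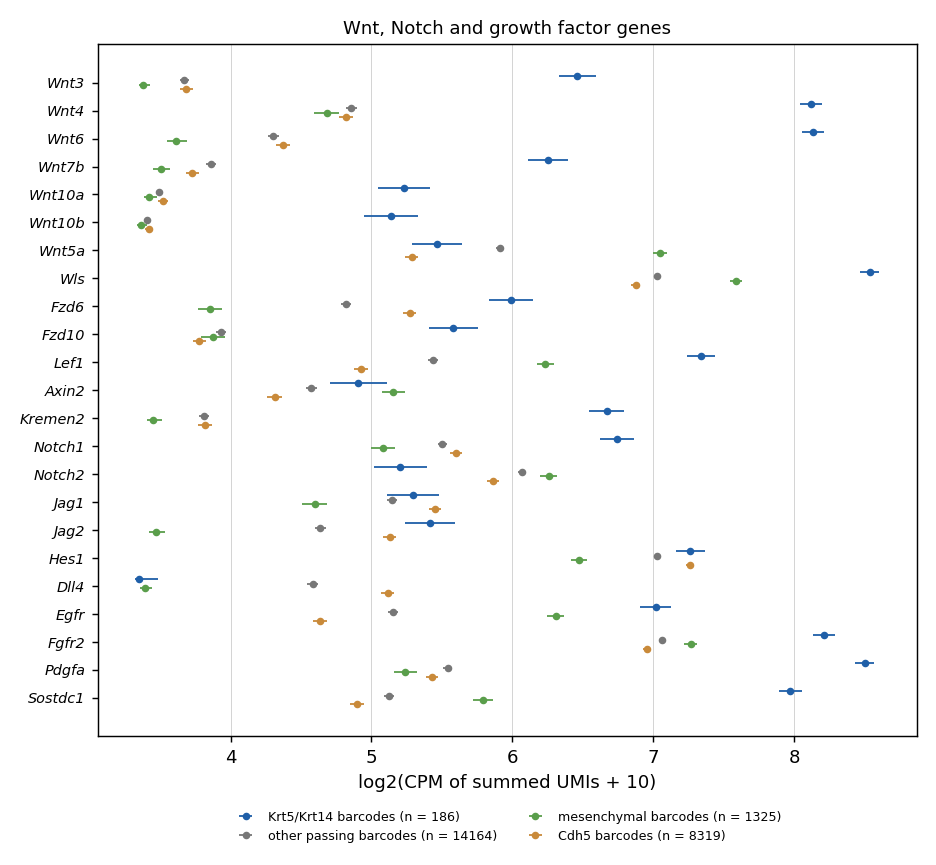
Levels of 23 signalling genes as log2(CPM + 10) of summed UMIs in the same 4 sets of barcodes, with exact 95% Poisson intervals (counting error only). Kremen2, Lef1, Pdgfa, Sostdc1 and all Wnt ligands shown but Wnt5a are highest in the Krt5/Krt14 barcodes. Wnt5a is highest in the mesenchymal barcodes and Dll4 in the Cdh5 barcodes.

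Cell cycle genes differed little in level. None of 42 S phase genes was higher or lower, with a median log2 difference of 0.24, and 1 of 52 G2/M genes, Ect2, was higher, at 95.3 CPM against 41.2. Mki67 was at 132 CPM against 137. A UMI of Mki67 or Top2a was present in 66.1% of the Krt5/Krt14 barcodes (58.8 to 72.9%) and in 50.1% of the others. At 2000 UMIs per barcode these shares were 38.4% (31.2 to 45.6%) and 32.6% (31.8 to 33.3%), and thus lay closer together. Barcodes of 1 library are not replicates, and the difference was not tested. Immediate early genes, which tissue digestion is known to induce, had 5 of 16 higher and 1 lower. Fos was at 1593 CPM against 552, Egr1 at 941 against 294 and Atf3 at 558 against 133. The part of the digestion in these levels was not tested.

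Markers of other cells were mostly lower than in the other barcodes. Cdh5 was at 0 by the rule, and the 11 other endothelial markers were lower than in the other barcodes, with a median log2 difference of -3.48. Of the 14164 other barcodes 8319 held Cdh5, which the rule bars from the Krt5/Krt14 barcodes, so this difference was partly set by the rule. Against the mesenchymal barcodes, also chosen without Cdh5, 1 of 11 endothelial markers counted was lower and none higher, with a median log2 difference of -0.26. Pecam1, the gene of the sorted protein CD31, was at 12.7 CPM against 267 in the other and 474 in the Cdh5 barcodes, and had a UMI in 22.0% of the Krt5/Krt14 barcodes. Its level in barcodes of 10 to 100 UMIs, which show the free RNA, was 203 CPM. In the mesenchymal barcodes, which should lack it, it was at 10.6 CPM, near the level in the Krt5/Krt14 barcodes. Kdr was at 4.30 CPM against 216. Hepatocyte markers were lower for 10 of 10 genes, with Alb at 15.9 CPM against 478, and 9 of 10 leukocyte and 4 of 7 erythroid markers were lower. Against the mesenchymal barcodes 8 of 10 hepatocyte, 1 of 9 leukocyte and 0 of 6 erythroid markers were lower. Fabp4, Ptprb, Igfbp7 and Ctla2a of endothelium, Afp, Ttr and Rbp4 of liver, and Camp and Ngp of neutrophils were, with Cdh5, the 10 genes furthest below the other barcodes. Of 8 fibroblast markers 7 were lower, Col1a1 at 73.0 CPM against 401 and Col3a1 at 106 against 364.

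Dcn, decorin of fibroblasts, was the exception, at 189 CPM against 130 and with a UMI in 71.0% of the Krt5/Krt14 barcodes. In 27 barcodes with at least 10 Dcn UMIs, Col1a1 was at 232 CPM and Col3a1 at 312. In 105 barcodes with 1 to 9 Dcn UMIs, Dcn was at 151 CPM while Col1a1 was at 39.7 and Lum, another fibroblast proteoglycan, at 5.67. The 54 barcodes without Dcn had Col1a1 at 27.6 CPM and Lum at 4.44. The intervals of Col1a1 and Lum, which cover counting error only, overlapped between these last sets. The sets were split on Dcn itself, and no test was made. Other genes also differed between them, as Col1a2 was at 32.5 CPM with 1 to 9 Dcn UMIs against 49.8 without, Krt15 at 959 against 537 and Cxcl14 at 2001 against 1124. Median depths were 30196, 23493 and 20100 UMIs from the first set to the last.

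The Krt5/Krt14 barcodes were themselves grouped into 5 Leiden clusters of 57, 47, 32, 32 and 18 barcodes, and the leading genes of these clusters describe the grouping and are no test. Several leading genes came from 1 barcode, such as S100a8 and S100a9 in the first cluster (654 of 664 and 655 of 665 UMIs), Pf4 and C1qb in the second (70 of 71 and 66 of 68), Angpt1 in the third (86 of 98) and Reln in the fourth (265 of 268). The fifth had 4 spinous markers among its 10 leading genes and is called spinous keratinocyte-like. The fourth had 3 fibroblast markers among them, but as all its barcodes held both keratins it is given by number, and the other clusters by number too.

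The spinous keratinocyte-like cluster of 18 barcodes had Krtdap at 2276 CPM against 37.4 in the other 168, Krt1 at 863 against 20.0, Krt10 at 610 against 48.3 and Dmkn, a secreted product of differentiating epidermis, at 425 against 9.65. Basal genes were lower there, with Col17a1 at 3.98 CPM against 81.8, Cxcl14 at 219 against 1954, Krt15 at 419 against 828 and Trp63 at 89.5 against 170. Krt5 was not lower, at 1231 CPM against 711. Notch1 was at 346 CPM against 66.9 and was detected in 17 of the 18, whereas its target Hes1 was at 139 against 144. Wnt6 was at 77.5 CPM against 294 and Lef1 at 13.9 against 169. Top2a was at 332 CPM against 358. Krt5 was present in each of these barcodes by the rule, which spinous cells without it could not meet.

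The other clusters differed in their basal genes. The first, of 57 barcodes, had the highest Krt15 (1260 CPM against 617 in the rest), with Wnt6 at 402 CPM against 224 and Top2a at 54.7 against 460. The second, of 47, was led by cell cycle genes, with Nusap1 of the spindle at 299 CPM against 56.5 and H1f5, a linker histone, at 1644 against 354. Top2a was at 766 CPM there, and G2/M genes took a median of 1.17% of the UMIs of a barcode, against 0.213% in the first. The third, of 32, had Syt1, a synaptic vesicle protein, at 264 CPM against 15.8, detected in 17 barcodes. The fourth, of 32, carried fibroblast genes beside the keratins, with Col3a1 at 514 CPM against 15.3 and Prrx1, a factor of limb and dermal mesenchyme, at 152 against 0.526, while Trp63 was at 106 against 174, Krt15 at 387 against 872 and Krt5 at 481 against 831. In that cluster 18 of 32 barcodes held 2 or more of the multiplexing tags described next, against 10 of the 154 other Krt5/Krt14 barcodes, and the share of droplets with more than 1 cell was not tested otherwise. Without the 28 barcodes that held 2 or more tags, Trp63 was detected in 89.2% and a Mki67 or Top2a UMI in 65.2% of the remaining 158.

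**Figure D4:**
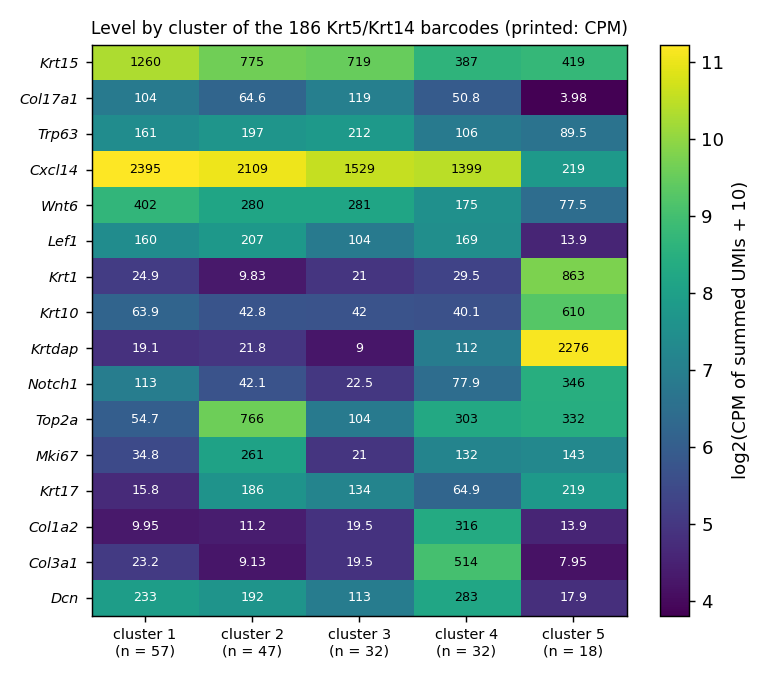
Levels of 16 genes (rows) in the 5 clusters of the 186 Krt5/Krt14 barcodes (columns), coloured by log2(CPM + 10) and with the CPM of summed UMIs printed. Krt1, Krt10, Krtdap and Notch1 are highest in cluster 5, Top2a and Mki67 in cluster 2, Krt15 and Cxcl14 in cluster 1, and Col1a2, Col3a1 and Dcn in cluster 4.

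Few of the Krt5/Krt14 barcodes carried a hashtag that the labels tie to a tissue and genotype. At least 100 UMIs of a labelled hashtag were present in 7 of 186 (3.76%, 1.53 to 7.60%), against 16.0% of the other barcodes. The matrix also held 5 multiplexing tags, CMO301 to CMO305, to which the labels give no group. At least 100 UMIs of such a tag were present in 177 of the 186 (95.2%, 91.0 to 97.8%), including all 7 with a hashtag, against 62.1% of the other barcodes, 92.5% of the mesenchymal and 48.9% of the Cdh5 barcodes. The median was 2734.5 UMIs over the 5 multiplexing tags and 33 over the 6 hashtags. HTODemux, a method that calls hashtags against background, gave 1 hashtag to 57 of the 186 (30.6%, 24.1 to 37.8%), 2 or more to 16 and none to 113, against 38.4% with 1 hashtag among 14115 other barcodes with enough hashtag counts. The barcodes it gave to Control Liver had a median of 20 hashtag UMIs, those given to iSureHadCre Liver a median of 23 and those given to Control Heart a median of 19.5. When barcodes at exactly the depth limits were left out, 42 instead of 57 had a call, Control Liver went from 20 to 3 and Control Heart from 6 to 16. No comparison of genotypes or tissues was therefore made for these barcodes.

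By multiplexing tag the Krt5/Krt14 barcodes fell into sets with different Y-linked genes and transgenes. Exactly 1 tag was present in 149, 2 or more in 28 and none in 9. A UMI of 4 Y-linked genes was found in 37 of 39 barcodes with CMO302, in 13 of 13 with CMO303 and in 36 of 36 with CMO304, but in 1 of 17 with CMO301 and in 0 of 44 with CMO305. WPRE, a viral element in the transcript of the inserted alleles, was at 362 CPM (327 to 399) with CMO305 and was detected in 43 of 44. It was at 70.5 CPM with CMO304 (29 of 36), 9.53 with CMO302 (9 of 39), 3.72 with CMO303 (1 of 13) and 2.35 with CMO301 (1 of 17). Tomato was at 57.9 CPM with CMO305, 1.07 with CMO304 and had no UMI with the other tags. Sv40-pA, a polyadenylation signal used in stop cassettes of inserted alleles, was highest with CMO304 (125 CPM) and CMO301 (101 CPM), and was at 11.8 with CMO305. The transgene UMIs thus differed between tags and not only between cells of 1 tag. Krtdap was at 692 CPM with CMO304 (16 of 36) and 467 with CMO305 (8 of 44) and at most 11.8 with the other 3 tags. Few barcodes carried it, as 1145 of its UMIs lay in the spinous keratinocyte-like cluster, where 6 of 18 barcodes held CMO304 and 8 held CMO305 as the only tag. Trp63 was between 121 and 229 CPM and Notch1 between 74.4 and 119 CPM over the 5 tags.

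**Figure D5:**
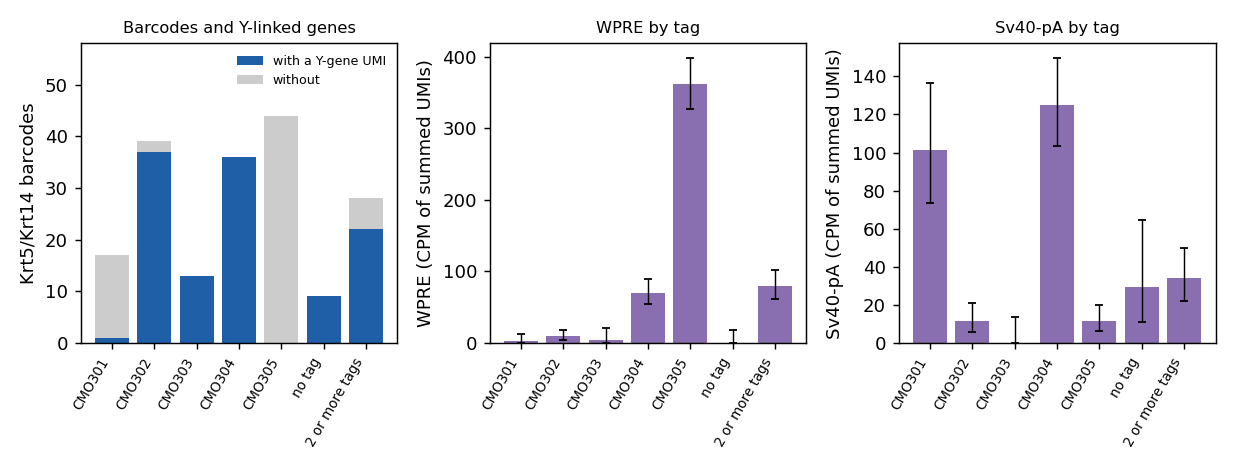
Krt5/Krt14 barcodes by multiplexing tag (at least 100 UMIs): the number with and without a UMI of 4 Y-linked genes, and the CPM of WPRE and Sv40-pA in summed UMIs with exact 95% Poisson intervals (counting error only). CMO305 has 44 barcodes, none with a Y-linked UMI, and the highest WPRE, and Sv40-pA is highest with CMO304 and CMO301.

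Over all 186 barcodes, 1 of the 4 transgene features was counted as lower than in the other barcodes, and none of the 3 counted against the mesenchymal barcodes was lower or higher. WPRE was at 116 CPM against 201, a ratio of 0.577 (0.529 to 0.628), and 73.9 in the mesenchymal barcodes, a ratio of 1.57 (1.42 to 1.73), from 0 to 30 UMIs per barcode. Free RNA carried WPRE at 160 CPM. Tomato was at 15.7 CPM against 37.9, a ratio of 0.415 (0.325 to 0.523), and Sv40-pA at 46.5 against 88.6. Cre, the gene counted as lower, had 1 UMI in the 186 barcodes, against 10.97 CPM in the other and 19.6 CPM in the Cdh5 barcodes. WPRE, Tomato and Sv40-pA differed between multiplexing tags, while free RNA was read as 1 profile of the whole library. The part of free RNA and of the tags in these levels was not tested.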

How the data were processed

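The deposited file held raw UMI counts per gene, hashtag and barcode, made by the authors with Cell Ranger 7.1.0 against GRCm38 with transgene sequences added, and not filtered for cells. The matrix had 2755147 barcodes, 21951 gene or transgene features and 13 tag features. The members and gene lists were chosen with earlier results of these data known. Counts were summed over barcodes and scaled to CPM. Intervals for levels are exact Poisson, those of ratios exact conditional, and those of shares exact binomial (Clopper-Pearson), at 95%. UMIs of 1 library are not replicates, so no test was made. For detection shares each barcode was thinned to 2000 UMIs, as the mean over all draws. Intervals of thinned shares use the rounded mean count. Free RNA was read from 24194 barcodes of 10 to 100 UMIs. The genes named were those of the gene lists, the 20 highest and 10 lowest against the other barcodes, 5 against the mesenchymal barcodes, Hox genes with at least 10 UMIs and 5 leading genes per cluster. Some of these genes are not reported here. Clusters came from scanpy 1.11.5 (1000 variable genes, 15 components, resolution 0.5). Hashtags were called with HTODemux of Seurat 5.3.0 in R 4.3.3 (quantile 0.99) over barcodes with more than 4 hashtag counts. No doublet caller was run, and barcodes with several tags were kept. The scripts were tested on simulated data, where 100% of genes set 4-fold higher and 72% of genes set 4-fold lower were recovered. Counts of lower genes can thus fall short. Alternatives were other keratin, Cdh5, depth, mitochondrial and haemoglobin limits, other added CPM, barcode means and other hashtag rules.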

Additional observations from a re-analysis of the deposited data

Results flagged for a closer look

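The multiplexing tags CMO301 to CMO305 are outside the groups that the labels give, and their UMIs were the main tag signal of the Krt5/Krt14 barcodes. At least 100 UMIs of such a tag were present in 177 of 186. As the only such tag, CMO301 was present in 17, CMO302 in 39, CMO303 in 13, CMO304 in 36 and CMO305 in 44. There were no control samples without tags. What these tags mark was not tested.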

How the results depend on the processing

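The number of Krt5/Krt14 barcodes ran from 133 (at least 10 UMIs of each keratin) to 248 (Cdh5 allowed). Of 84 values recomputed under alternatives, 69 stayed within their interval or within 1.5 times, and the WPRE and Tomato ratios, the ratios recomputed, kept their direction. The share with a Mki67 or Top2a UMI was 38.4% after thinning. The WPRE ratio was 0.645 with at least 10 UMIs of each keratin, 0.635 with at least 5000 UMIs and 0.422 as a mean of barcodes' CPM, and the Tomato ratio was 0.302 by that mean. The share of genes counted as higher was 4.36% with 1 CPM added and 0.551% with 50 CPM. The share called for 1 hashtag was 16.4% with a mitochondrial limit of 10% and 13.7% with a haemoglobin limit of 1%. It was 14.4% with at least 5000 UMIs and 22.6% with barcodes at the depth limits left out. A rule that takes the top hashtag when it has at least 10 UMIs and 3 times the runner-up gave 90.9%. In the Krt5/Krt14 barcodes the iSureCre Liver hashtag had a median of 22 UMIs, and the other labelled hashtags had medians of 1 or 2. That rule does not set a hashtag against its background. Alternatives that left out barcodes with several tags or with fibroblast collagens, and the run without barcodes at the depth limits, were chosen after seeing the data. No paired analysis was possible because all samples come from 1 library. Levels under 1 CPM in the Krt5/Krt14 barcodes rested on at most 4 UMIs, and intervals cover counting error only.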
